A study of Mus musculus with 4 samples.

Results

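The Hox cluster genes were described in whole skin of newborn mice, as a check of the body site that the skin came from. They were taken as every probe set that names a single gene called Hoxa, Hoxb, Hoxc or Hoxd with a number in the platform annotation. This gave 46 probe sets for 33 genes, among 13674 genes named on the 2 array types used. The first array type held 31 of these genes with 38 probe sets and the second held 7 with 8 probe sets. Hoxa3, Hoxa9, Hoxc5, Hoxd8 and Hoxd9 were the 5 genes on both types. Where several probe sets of a type name the same gene, that of highest mean signal gave its value. Hox genes without such a probe set were not analysed here.

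The study compared loricrin knockout with wildtype skin at postnatal day 0 in strain FVB/N, and the labels name the tissue as whole skin with no body site. Loricrin is a main protein of the cornified envelope of the epidermis. Biotin-labelled total RNA was read on 4 Affymetrix arrays, 2 per genotype, of which 1 lay on each array type. The knockout allele is not described in the sources used here, and nothing says whether the arrays of a genotype held RNA of different animals or pools. With 1 array per genotype and type, ratios within a type have no replicate error and no test.

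Hox genes encode homeodomain transcription factors that lie in 4 clusters, on chromosomes 6 (Hoxa), 11 (Hoxb), 15 (Hoxc) and 2 (Hoxd) of the mouse. Genes at the same place in different clusters form paralogue groups, and along the body low-numbered groups start in the hindbrain and neck while high-numbered groups are restricted to the lumbar, sacral and tail regions and the distal limb. Dermal fibroblasts keep a Hox pattern of their place of origin, skin of the face expresses few Hox genes, and Hoxc13 is known for its role in hair. Below, anterior means paralogue groups 1 to 4, central 5 to 8 and posterior 9 to 13.

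In these arrays the central groups were mostly above background and the posterior ones mostly under it. The last central and first posterior genes of the Hoxa and Hoxd clusters are Hoxa7 and Hoxa9, and Hoxd8 and Hoxd9; on the first array type the former of each pair were above background and the latter under it, while Hoxa9 passed on the second. The 250 bases before the start of Hoxa7 (minus strand, chr6:52218574-52218823), Hoxa9 (minus strand, chr6:52227371-52227620), Hoxd8 (plus strand, chr2:74704365-74704614) and Hoxd9 (plus strand, chr2:74697513-74697762) are printed to show what lies before the genes at the border of these classes. The letters come from RefSeq, build GRCm38.p6, read 5′ to 3′ on the strand of the gene, and each CG pair is in capitals.
Hoxa7: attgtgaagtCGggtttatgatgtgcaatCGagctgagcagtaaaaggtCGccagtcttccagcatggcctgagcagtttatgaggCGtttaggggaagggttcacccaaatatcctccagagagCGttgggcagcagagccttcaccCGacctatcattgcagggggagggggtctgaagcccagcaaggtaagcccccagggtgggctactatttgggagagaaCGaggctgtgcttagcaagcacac
Hoxa9: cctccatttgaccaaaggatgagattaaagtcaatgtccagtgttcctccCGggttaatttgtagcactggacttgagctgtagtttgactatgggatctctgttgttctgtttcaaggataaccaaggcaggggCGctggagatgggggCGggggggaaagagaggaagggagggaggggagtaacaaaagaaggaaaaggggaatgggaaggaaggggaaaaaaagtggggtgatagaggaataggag
Hoxd8: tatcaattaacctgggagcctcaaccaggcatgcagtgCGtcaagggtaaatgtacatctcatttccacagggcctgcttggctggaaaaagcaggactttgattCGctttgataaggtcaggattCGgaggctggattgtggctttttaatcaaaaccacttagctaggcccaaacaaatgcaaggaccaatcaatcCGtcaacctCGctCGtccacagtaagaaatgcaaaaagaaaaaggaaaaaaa
Hoxd9: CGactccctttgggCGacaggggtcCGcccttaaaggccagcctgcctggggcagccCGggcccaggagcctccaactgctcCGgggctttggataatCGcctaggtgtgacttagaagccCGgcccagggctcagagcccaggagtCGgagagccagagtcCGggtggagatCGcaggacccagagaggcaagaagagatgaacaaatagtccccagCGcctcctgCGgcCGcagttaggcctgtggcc
These windows hold 7 CG pairs before Hoxa7, 3 before Hoxa9, 6 before Hoxd8 and 13 before Hoxd9. In Hoxa the window of the central gene holds more pairs than that of the posterior gene, and in Hoxd it holds fewer. RefSeq windows of this length were at hand for 20 of the Hox genes, with a median of 12.5 CG pairs, against 6 over 32851 such windows of all genes. For the Hox genes 1 window each was used, that of the outermost start where it was listed, whereas the 32851 include every window. The choice of start matters, as Hoxa10 has 7 pairs at the outermost start and 20 at another, and Hoxd11 has 2 and 20. The 7 Hox genes with a window and a signal above the floor had a median of 7 pairs, and the other 13 had a median of 13. An observed over expected CG ratio of at least 0.6 was found in 50% of the 20 Hox windows and in 34.0% of all windows. The letters TATAAA, searched on both strands, stood in 10% of the Hox windows and in 12.4% of all windows. These are properties of the reference sequence, and nothing in the arrays measured methylation or binding there.

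The values are MAS5 signals on a linear scale, 1 per probe set and array. Both arrays of each type were brought to the same trimmed mean. The floor, a level taken as background, was their mean 40th percentile, which was 77.6 for the first type and 133 for the second. A gene was called above the floor when its signal passed this level in both arrays of a type. Of 8251 named genes on the first type 5403, or 65.5%, were above the floor, and of 7542 on the second 4801, or 63.7%. Of 13 control probe sets for bacterial or yeast sequence, 1 passed on the first type, where these controls reached 151 in knockout and 127 in wildtype, and 4 passed on the second, where they reached 273 and 321. Loricrin itself, measured by the first type alone, read 2013 in knockout and 41224 in wildtype, 20.5-fold lower. That probe set has the suffix r, given by Affymetrix where its rules for choosing probes had to be relaxed, and the other loricrin probe set read 12.4 and 27.3, under the floor. The arrays also differed in sex-linked genes. On the first type Xist, which silences an X chromosome in females, read 857 in knockout and 24.7 in wildtype, and on the second the Y-linked Kdm5d read 12.2 and 976, so sex and genotype cannot be told apart.

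On the first type 11 of the 31 Hox genes (35.5%) were above the floor, a smaller share than among all named genes. The split followed the position in the cluster. Of the central genes 9 of 11 were above the floor, of the anterior genes 2 of 8, and of the posterior genes 0 of 12. Of the 7 genes of the second type 4 were above the floor (57.1%), with 1 of 2 anterior, 2 of 2 central and 1 of 3 posterior genes. Over both types, 10 of 11 central genes passed on at least 1 type, against 3 of 9 anterior and 1 of 13 posterior genes. The share of all named genes passing on at least 1 type was not computed. In a list of 33 measured genes that are not expected in skin, such as hormones, digestive enzymes and germ cell genes, 8 (24.2%) passed the same floor on the first type, among them Scgb1a1, a secretory protein of the airway, at 533 in knockout and 1189 in wildtype, 2.23-fold lower. Others that passed were Gh (324 in knockout and 403 in wildtype), Oxt (267 and 379), Cel (267 and 291) and Tnp1 (218 and 285). Nppa (155 and 177), Sftpc (151 and 119) and Zp2 (87.5 and 140) passed as well. These signals overlap those of the central Hox genes above the floor. At this floor, the anterior share of 2 in 8 lies near the 24.2% of that list and the central share far from it. The counts depend on the floor: at the 20th percentile, passed by 82.4% of all named genes, 6 of 8 anterior, 10 of 11 central and 4 of 12 posterior genes of the first type passed. At the 60th percentile, passed by 46.1% of all named genes, the counts were 1 of 8, 3 of 11 and 0 of 12. The central share there was thus smaller than that of all named genes.

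**Figure D1:**
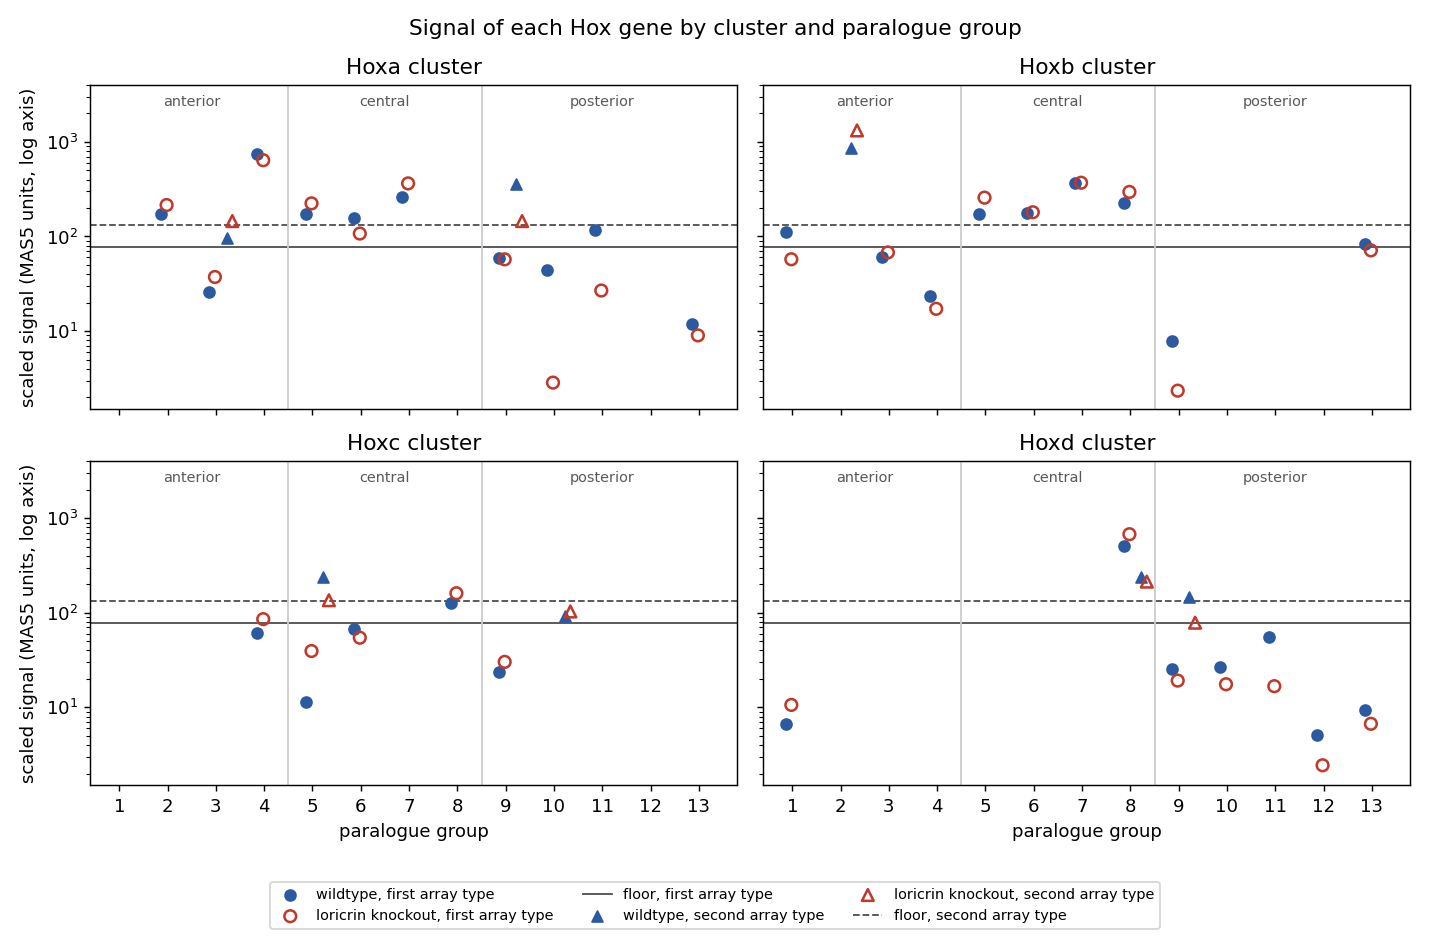
Scaled signal of each Hox gene (vertical log axis, MAS5 units) against its paralogue group from 1 to 13, in 1 panel per cluster. Filled blue points are wildtype arrays and open red ones loricrin knockout arrays, circles are the first array type and triangles the second, and the solid and dashed lines are the floors of 77.6 and 133. Circles above the solid line in both genotypes stand in the central groups and, in Hoxa only, in the anterior ones, while every posterior gene on the first type has at least 1 circle below it.

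**Figure D2:**
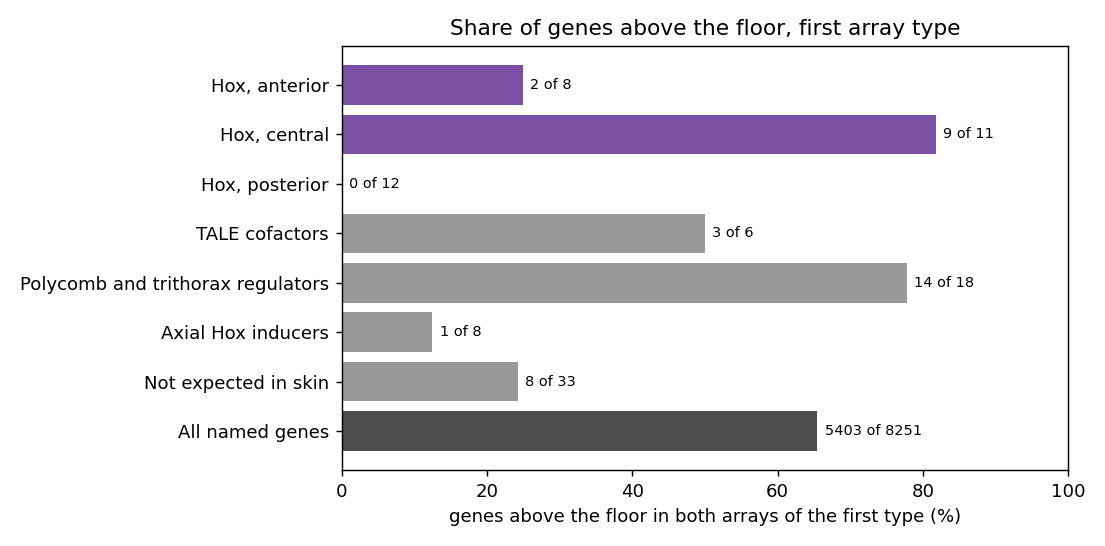
Share of genes above the floor in both arrays of the first type, in percent, with counts beside the bars. The central Hox bar (9 of 11) exceeds that of all named genes (5403 of 8251), the anterior one (2 of 8) is close to that of genes not expected in skin (8 of 33), and the posterior one is 0 of 12.

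The central genes belong to the groups that pattern the neck base, forelimb level and thorax. In Hoxb all 4 of them were above the floor on the first type. Hoxb5, which helps to set the position of the forelimb, read 257 in knockout and 175 in wildtype. Hoxb6 read 180 and 175, and Hoxb7 read 370 and 368, nearly the same in both genotypes. Hoxb8, a thoracic gene also known from blood cells and microglia, read 296 and 226. Each of these 8 values lay at more than 2-fold the floor, so that Hoxb was above it over the whole central stretch.

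All 3 central Hoxa genes passed as well. Hoxa5, needed for the lung and the neck vertebrae, read 224 in knockout and 171 in wildtype. Hoxa6 read 107 and 159, the knockout value being within the range of the non-mouse controls. Hoxa7, a thoracic gene also expressed in keratinocytes, read 364 and 259. Hoxa5 and Hoxa7 were thus higher in the knockout array and Hoxa6 in the wildtype array.

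In Hoxc 1 of 3 central genes passed on the first type. Hoxc8, which specifies thoracic vertebrae and motor neurons of the forelimb, read 161 in knockout and 127 in wildtype, close to the highest non-mouse controls. Hoxc6 stayed under the floor with 54.6 and 67.3. Hoxc5 read 39.5 and 11.5 on the first type, also under it. Another Hoxc5 probe set, on the second type, read 136 in knockout, barely above that type's floor, and 238 in wildtype. Hoxd8, the only central gene of Hoxd, was above the floor on both types, at 678 and 512 on the first and at 214 and 241 on the second. Hoxd8 was therefore the only one of the 5 genes on both types to pass on each, by a probe set with the suffix i on the second. On that type the Hoxc5 and Hoxd8 values lay within the range of the non-mouse controls, which reached 273 in knockout and 321 in wildtype. With each array's highest control as the floor, 0 of 2 central genes passed there.

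Among the anterior genes, Hoxa2, which patterns the second pharyngeal arch and the hindbrain, read 215 in knockout and 171 in wildtype, both on the first type. Hoxa4, a neck-level gene, read 640 and 744. Hoxb2, a hindbrain gene measured on the second type only, read 1322 and 857, far above its floor and above every non-mouse control. A further 3 anterior genes passed in 1 array. Hoxb1 read 57.4 in knockout and 111 in wildtype, Hoxc4 read 85.7 and 60.8, and on the second type Hoxa3 read 146 and 96.1. Hoxb3, Hoxb4 and Hoxd1 were under the floor in both arrays, as was Hoxa3 on the first type. The anterior genes above the floor in both arrays were thus of Hoxa and Hoxb, with 1 anterior gene measured in each of Hoxc and Hoxd.

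Of the 13 posterior genes, 9 were under the floor in every array that measured them. These were Hoxa10, Hoxa13, Hoxb9, Hoxc9, Hoxc10, Hoxd10, Hoxd11, Hoxd12 and Hoxd13, the last of which shapes the digits and, like Hoxa13, the genital tubercle. On the first type the 10 posterior genes under the floor in both arrays read from 2.35 to 59.5. Hoxa11, a gene of the forearm and shank, read 26.8 in knockout and 118 in wildtype, and Hoxb13, which is expressed in the tail tip and prostate, read 71.3 and 82.6, so both passed in the wildtype array alone. Hoxd9 was under the floor on the first type and read 78.7 and 145 on the second, above the floor in wildtype only.

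Hoxa9 was the only posterior gene above the floor in both arrays of a type. This gene acts at the lumbar level and in blood progenitors. Its probe set of the second type read 146 in knockout and 357 in wildtype. Another Hoxa9 probe set, on the first type, read 57.3 and 59.5, under the floor in both arrays. The knockout value on the second type also lay within the range of the non-mouse controls there, which reached 273, and with each array's highest control as the floor 0 posterior genes passed. The types therefore disagree on whether Hoxa9 was detected, and which probe set tracks the transcript was not tested.

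By cluster, 6 of 10 Hoxa genes, 5 of 10 Hoxb genes, 2 of 6 Hoxc genes and 1 of 7 Hoxd genes were above the floor on at least 1 type. Genes on both types had 2 chances to pass, and no share of all named genes was computed by that rule. On the first type alone the counts were 5 of 10, 4 of 9, 1 of 5 and 1 of 7, where 65.5% of all named genes passed. The clusters do not hold the same groups, since 5 of the 7 Hoxd genes but 2 of the 10 Hoxb genes are posterior. Within the central class the counts on at least 1 type were 3 of 3 in Hoxa, 4 of 4 in Hoxb, 2 of 3 in Hoxc and 1 of 1 in Hoxd. Within the posterior class they were 1 of 4, 0 of 2, 0 of 2 and 0 of 5. Whole skin holds dermis, epidermis, hair follicles, nerve and some muscle, and in such bulk RNA fewer cells of a type and less RNA per cell cannot be told apart.

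Several calls rest on probe sets of lower quality, marked by a letter in their name. Of the 11 calls on the first type, those of Hoxa4, Hoxa6 and Hoxb8 came from probe sets with the suffix r. Another probe set of the same gene disagreed each time. For Hoxa4 the others read 98.3 in knockout and 25.1 in wildtype, 57.2 and 29.1, and 2.94 and 5.64, none above the floor in both arrays. For Hoxa6 the other read 15.0 and 7.12, and for Hoxb8 it read 5.03 and 25.4. With probe sets that carry no suffix only, 8 of 28 Hox genes passed on the first type, namely 1 of 8 anterior, 7 of 9 central and 0 of 11 posterior, where 64.0% of the 7660 genes with such a probe set did. The Hoxd8 call on the second type rests on a probe set with the suffix i, and without it the calls there were 3, Hoxa9, Hoxb2 and Hoxc5.

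The other genes with several probe sets differed too. Hoxd8 passed with both of its probe sets on the first type, 678 in knockout and 512 in wildtype, and 420 and 468, of opposite direction between genotypes. Hoxd1 was under the floor with both. The other Hoxc5 probe set of the second type read 18.8 and 20.8, far under the floor. The annotation lists the same source sequence for the Hoxd9 and the Hoxd10 probe set of the first type, so these may not be independent, and both were under the floor. Paralogous Hox genes share the homeobox, and cross-hybridisation between them was not tested.

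**Figure D3:**
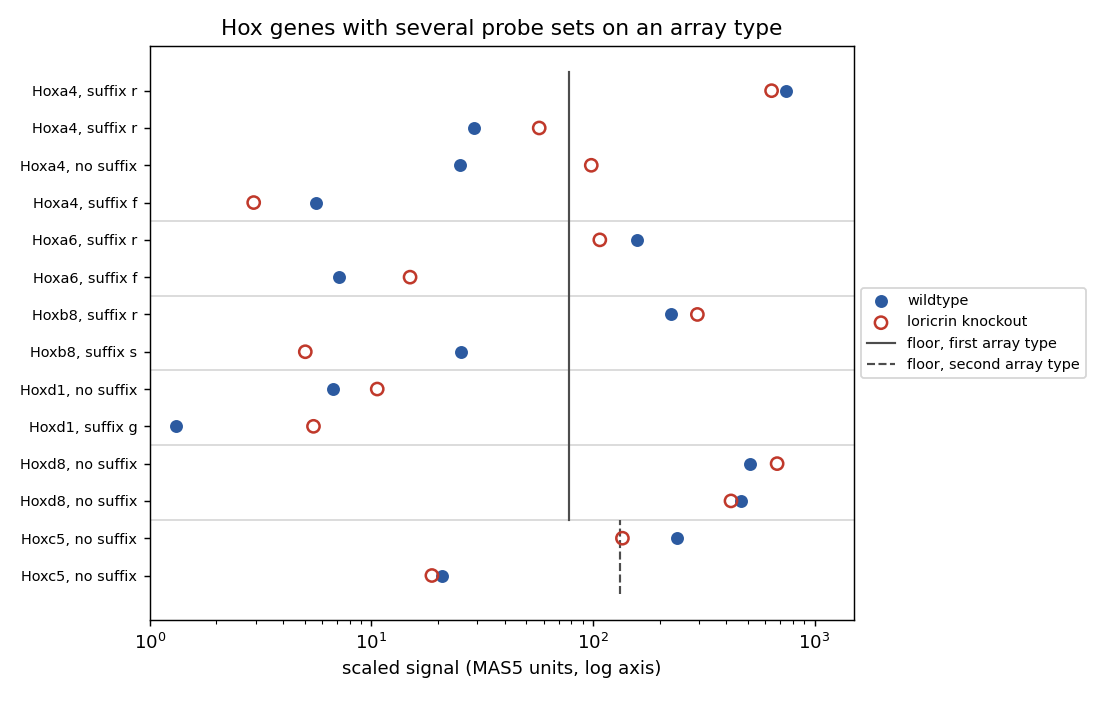
Scaled signal in MAS5 units (log axis) of every probe set of the 6 Hox genes with more than 1 on an array type, with wildtype filled blue and loricrin knockout open red. The lines are the floors, solid for the first type and dashed for the second. For Hoxa4, Hoxa6 and Hoxb8 a single probe set with suffix r lies above the floor in both genotypes, whereas both Hoxd8 probe sets do.

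The knockout and wildtype arrays were compared next, to see whether the Hox readings differed with genotype. On the first type 0 of 31 Hox genes were at least 2-fold higher in knockout and 0 were at least 2-fold lower, where 0.836% and 1.38% of all named genes were. Of the 7 on the second type 0 were higher and 1, Hoxa9, was lower, where 1.67% and 2.12% of all named genes were. Genes under the floor in both arrays cannot pass this rule, which concerned 16 Hox genes of the first type and 1 of the second. A gene above the floor in 1 array alone can pass only with a signal of at least 2-fold the floor. This concerned 4 further genes of the first type and 2 of the second, and none had such a signal. Only the 11 and 4 genes above the floor in both arrays had a ratio free of the floor.

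Among the 11 genes above the floor on the first type, the log2 ratio of knockout over wildtype ran from -0.56 for Hoxa6 to 0.56 for Hoxb5, with a median of 0.34. It was positive for 9 genes and negative for Hoxa4 (-0.22) and Hoxa6, both read by r probe sets. Hoxa7 had a ratio of 0.49, Hoxd8 of 0.40, Hoxa5 and Hoxb8 of 0.39, Hoxc8 of 0.34 and Hoxa2 of 0.33. Hoxb6 (0.04) and Hoxb7 (0.01) lay near 0. Over all 5403 genes above the floor on that type the median was 0.027, and 53.1% were positive. With 1 array each, it cannot be said whether the Hox ratios exceed the spread between arrays of a genotype.

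Hoxa9 had a log2 ratio of -1.29 on the second type, that is 2.45-fold lower in knockout. The arrays of that type differ in the sex-linked genes. Prrx1, a mesenchyme gene chosen after its values were seen, read 5.31 in knockout and 243 in wildtype there. Against the floor Prrx1 was at least 1.82-fold lower, a bound short of 2-fold. On the first type it read 5.47 and 34.6, under the floor in both arrays. No gene of the dermal fibroblast list was measured on the second type. The part of the sex-linked or the Prrx1 difference in the Hoxa9 value was not tested. Hoxc5 had -0.81 and Hoxd8 -0.18, while Hoxb2 had 0.63, 1.54-fold higher. The median of these 4 was -0.49, against 0.014 over the 4801 genes above the floor, of which 51.1% were positive. The types share Hoxd8 alone among these genes, and its ratio was 0.40 on the first and -0.18 on the second. Of the genes that passed in 1 array, Hoxa11 was at least 1.52-fold lower in knockout and Hoxb1 at least 1.43-fold lower, both lower bounds against the floor.

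**Figure D4:**
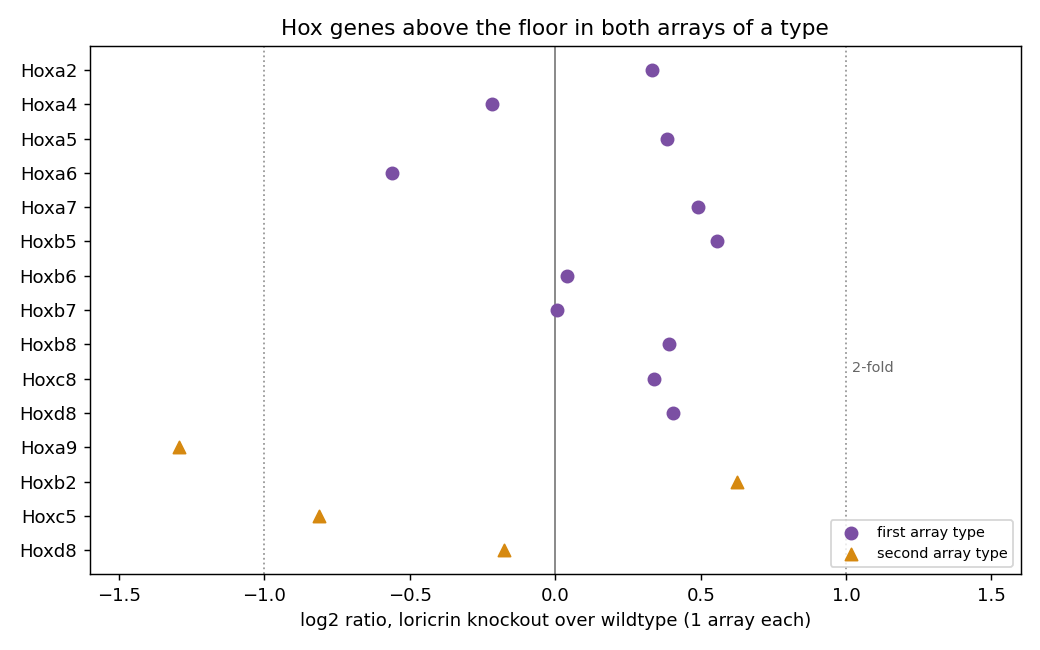
Log2 ratio of loricrin knockout over wildtype (horizontal axis) for the Hox genes above the floor in both arrays of a type, with 1 array per genotype behind each point. Purple circles are the first type, orange triangles the second, and the dotted lines mark 2-fold. Of the 15 points only Hoxa9 (-1.29) lies beyond a dotted line, and 9 of the 11 circles lie right of 0.

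The 5 genes on both types allowed the only fit with a residual degree of freedom, a limma model of genotype with the array type as a block over 2119 genes. In limma 0 genes (0%) reached an adjusted p under 0.05, while 157 had an unadjusted p under that value, and none of these was a Hox gene. The mean log2 ratio was -0.65 for Hoxa9 (standard error 0.51) and -0.41 for Hoxc5 (standard error 0.32), each with an adjusted p of 0.686 in limma. Hoxa3 had 0.065 and Hoxd9 -0.064, with standard errors of 0.059 and 0.058 and the same adjusted p. Hoxd8 had 0.11 with a standard error of 0.23 and an adjusted p of 0.876 in limma. Signals under the floor were set to it, so Hoxa9, Hoxc5, Hoxa3 and Hoxd9 enter with a ratio of 0 from the first type, and their fitted mean averages that 0 with the ratio of the second type. The p-values measure the spread between array types, not between animals.

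The scaling matters for these signs. The 9 bacterial spike-in control probe sets read lower in the knockout arrays, their mean log2 ratio being -0.69 in the first type and -0.65 in the second. When they were used for scaling, the median over all genes above the floor became 0.70 and 0.64. The Hox median of the first type was then 1.03, all 11 ratios were positive, Hoxa4 and Hoxa6 included, and 7 genes were at least 2-fold higher, as were 1007 of all genes above the floor, against 52 before. The Hox median of the second type was 0.16. Hoxb2 was past 2-fold there with 1.28, as were 808 of all genes above the floor, and Hoxa9 had -0.64. The counts above the floor were 11 and 4 under this scaling as well.

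Markers of cell types were read in the same arrays, and those of dermal fibroblasts differed in part between knockout and wildtype. Among 9 dermal fibroblast genes on the first type 5 were at least 2-fold lower in knockout and 0 were higher. Of all named genes on that type 1.38% were lower and 0.836% higher. The summed signal of the 9 genes was 4099 in knockout and 7401 in wildtype. Col1a1, a chain of type I collagen, read 172 and 1545, whereas Dcn, the proteoglycan decorin, read 2462 and 2556 and Col1a2 1082 and 1076, both chosen after their values were seen. Pdgfra, a receptor of dermal fibroblasts, is 1 of the 5 with 43.7 and 401, but another of its probe sets read 200.3 and 139, higher in knockout. The part of this difference in the Hox ratios was not tested. Skeletal muscle genes (2 of 9 above the floor), cartilage and bone genes (2 of 7) and neuron genes (2 of 9) were mostly under the floor. The muscle genes that passed were Mylpf at 151 in knockout and 251 in wildtype and Actn3 at 108 and 109. Those of cartilage were Col9a1 at 219 and 135 and Acan at 104 and 89.6. The neuron genes that passed were Tubb3, a neuronal tubulin, at 2836 and 2842 and Stmn2 at 103 and 89.6. On the second type Col9a1 had the opposite direction. It read 5.60 in knockout and 290 in wildtype there, above the floor in wildtype only and at least 2.18-fold lower. Of 10 keratinocyte genes 7 were above the floor on the first type, 1 at least 2-fold higher in knockout and 1, loricrin, lower. The higher one was Trp63, a transcription factor of the basal layer, at 1906 in knockout and 913 in wildtype, 2.09-fold. Krt1 and Krt10, keratins of the suprabasal epidermis chosen after their values were seen, read 18714 and 18480 in knockout and 26636 and 25556 in wildtype, far above the floor. Krt5, Krt14 and Krt15, keratins of the basal layer that newborn skin is known to express, were under the floor on the first type, while Krt15 read 26582 and 22304 with the probe set of the second. A gene under the floor is thus not shown to be absent from these samples, Hox genes included.

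The proteins that bind DNA together with Hox factors were measured in part. Of the TALE cofactors, 3 of 6 were above the floor on the first type, with none past 2-fold. Pbx2 read 183 in knockout and 127 in wildtype, and Pbx3 read 207 and 174. Pknox1, which is also known as Prep1, passed on both types, at 122 and 132 and at 722 and 767. Meis1, Meis2 and Meis3, partners of the posterior Hox proteins as well as of Pbx, were under the floor in both arrays.

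Polycomb complexes keep Hox genes silent outside their domains and trithorax proteins keep them active. Of these regulators 14 of 18 (77.8%) were above the floor on the first type, and 3 of 6 (50%) passed on the second, among them Kdm6b at 1106 in knockout and 1324 in wildtype and Phc3 at 395 and 330. Past 2-fold was 1, Suz12, a core subunit of the complex that methylates histone H3, at 555 in knockout and 270 in wildtype. Its other probe sets read 73.2 and 108, and 37.4 and 63.5, lower in knockout. Kdm6a, an X-linked histone H3 demethylase that escapes X inactivation and was picked out after its values were seen, read 848 and 508 on the first type. Its probe set of the second type read 311 and 218, and the arrays differ in the sex-linked genes. Hence no regulator was past 2-fold in more than 1 probe set.

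Signals that set Hox domains in the embryo were mostly not detected. Of 8 such genes on the first type, among them Cdx1, Cdx2, Cdx4, Gdf11 and the retinoic acid enzymes Aldh1a2 and Cyp26a1, 1 was above the floor. This was Rarg, a retinoic acid receptor of the epidermis, with 504 in knockout and 438 in wildtype. Of 3 on the second type 1 passed, Rara, with 2830 and 2261, whereas its probe set of the first type read 11.8 and 8.42, under the floor.

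Other regional transcription factors, from lists for head, limb and trunk, were read for comparison. Of head and face factors 2 of 8 were above the floor on the first type, Alx4 at 158 in knockout and 289 in wildtype and Dlx5 at 535 and 488. Of limb factors 1 of 4 passed, Pitx1, a hindlimb gene, at 343 and 240. Tbx5, a forelimb gene on the second type, read 156 and 316, 2.02-fold lower. Of factors of the trunk dermis 1 of 7 passed, Twist2, at 79.5 and 394, 4.96-fold lower in knockout. Several of these factors are also expressed in other parts of the skin, and none marks a site alone.

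The regional factors that passed in the wildtype array alone were chosen after their values were seen. Shox2, a proximal limb gene, read 39.9 in knockout and 246 in wildtype, at least 3.16-fold lower, and its other probe set read 13.3 and 12.4, under the floor. Six2 read 49.9 and 197, at least 2.54-fold lower, and Prrx2 read 32.7 and 183, at least 2.36-fold lower. These are genes of mesenchyme, as is Twist2. In the same knockout array Col1a1 was lower too, whereas Dcn and Col1a2 were nearly the same in both genotypes. The part of any dermal difference in these values was not tested.

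Several hair follicle genes were above the floor, in both genotypes. Of 12 hair matrix and shaft genes 8 (66.7%) were above the floor on the first type, near the 65.5% of all named genes. Krt86 was 2.01-fold higher in knockout, at 519 and 258, and Krt35 was 2.08-fold lower, at 101 and 210, while a second Krt35 probe set read 134 and 137. Both hair genes of the second type passed, Foxn1 at 885 and 830 and Lef1, a mediator of Wnt signalling in the follicle, at 1399 and 865. The Hox values were measured in samples where some hair follicle genes passed the floor. Their share on the first type does not set them apart from all named genes. Hoxc13 itself was not measured.

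Set against the textbook order of the clusters, the genes above the floor were mostly those of the central groups. Nearly all genes of the posterior groups were under it in at least 1 array. These classes are paralogue groups and were not matched to levels of the body in these data. On the first type 9 of the 11 central genes passed in both genotypes and 0 of the 12 posterior genes did, where 65.5% of all named genes passed. Hoxa11 and Hoxb13 were above the floor in the wildtype array only. On the second type Hoxa9 passed in both genotypes and Hoxd9 in wildtype only. The contrast depends on the floor. At the 60th percentile 3 of 11 central genes of the first type passed, where 46.1% of all named genes did. At the 20th percentile 4 of 12 posterior genes passed, where 82.4% did. The labels name no site with which this could be compared.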

How the data were processed

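Total RNA of whole skin from newborn FVB/N mice was measured on 4 arrays, 1 loricrin knockout and 1 wildtype array on each of 2 array types. The authors' deposited values are array intensity values, 1 per probe set on a linear scale, and they were produced by MAS5, per the submitters' processing notes. No source used here gives the MAS5 version, scaling target or detection calls. The 2% trimmed mean was 500.3 and 500.4 on the first type and 500.2 on both arrays of the second.

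Both arrays of each type were brought to the same 2% trimmed mean, and 66 control probe sets per type were left out after scaling. That left 12422 and 12411 probe sets, for which the platform annotation names 1 gene (10833 and 10581), several (396 and 178) or none (1193 and 1652). Only those with 1 gene were used, and no Hox symbol needed updating. Signals under the floor were set to it before log2 ratios of knockout over wildtype were taken, and higher and lower mean at least 2-fold. Where 1 of the signals was at the floor the fold is a bound, written "at least". Columns were matched to samples by name, and 0 columns were left unmatched. The number of arrays limits the precision.

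Named were loricrin, every Hox gene, and per gene list the members above the floor in both arrays past 2-fold or else the 2 with the highest signal, at most 4; other genes were chosen after their values were seen. The Hox genes and the lists were chosen with earlier results of these data known. The test was limma 3.58.1 in R 4.3.3 with Benjamini-Hochberg adjustment; Python 3.11.15 was used for the rest. The steps were tested on simulated data. Alternatives changed the scaling, floor, fold, value per gene and block. Scaling on spike-in controls, a floor at the highest non-mouse control, and a limma filter were added after the data were seen.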

Additional observations from a re-analysis of the deposited data

How the results depend on the processing

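The counts above the floor moved with the floor. At the 20th percentile 20 of the first type's genes passed, 7 of the second's, and over both types 7 anterior and 6 posterior genes, where 82.4% and 80.7% of all named genes passed. At the 60th percentile Hoxa4, Hoxa7, Hoxb7 and Hoxd8 (4) passed on the first type and Hoxb2 (1) on the second, with 3 central and 0 posterior genes, where 46.1% and 46.4% of all named genes passed. With the highest non-mouse control as the floor, 9 passed on the first type, 1 on the second and 0 posterior genes, where 55.4% and 47.1% of all named genes passed. On the first type 0 posterior genes passed under every setting run except the 20th percentile, where 4 of 12 did.

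Scaling on the spike-in controls gave 7 genes at least 2-fold higher on the first type, 1 higher and 0 lower on the second, where 1007 and 808 of all genes above the floor were higher and 21 lower on each. At 1.5-fold, 1 gene was lower on the first type, and 1 was higher and 2 lower on the second. At 3-fold 0 were lower on the second type. Hoxa9 had -0.19 with the 60th percentile floor, where 0 genes were lower on the second type. At the 20th percentile 3 genes were lower on the first type. Without a floor and with a pseudocount of 1, 1 gene was higher and 4 were lower there, all of them under the floor in at least 1 array. The limma mean of Hoxc5 turned positive, to 0.082 at the 20th percentile and 0.44 with a pseudocount of 1. The causes were not tested.

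No limma setting called a Hox gene. With genes above the floor in at least 1 array of each type, limma tested 1250 genes, called 0 (103 at an unadjusted p under 0.05) and left Hoxd8, with an adjusted p of 0.916. Leaving out an array leaves the ratio of the other type and no test. No paired analysis was possible because the labels carry no replicate numbers that pair arrays, beside the array type already in the fit. Signal over background limits every call near the floor.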

Other observations

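Probe sets that name several genes or an antisense gene were not counted among the Hox genes. A probe set of the first type for Hoxb7 and Hoxb8 together read 215 in knockout and 194 in wildtype, above the floor. A probe set for Hoxd3 and Hoxd4 together read 81.8 and 55.6, above the floor in knockout only, and another for the same pair read 9.74 and 18.4. On the second type a probe set for Hoxa7 and the overlapping noncoding gene Mira read 1279 and 950, far above the floor, with a log2 ratio of 0.43. Hoxa7 alone had 0.49 on the first type.

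Antisense genes of the clusters were near or under the floor. Hoxa11os, the antisense partner of Hoxa11, read 88.4 and 41.0 with 1 probe set and 9.64 and 26.0 with another, both on the first type. Hoxd3os1 read 30.4 and 50.2 on the second type.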
